A study of Mus musculus with 12 samples.

Results

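Hepatic expression of 10 genes of fatty acid synthesis was examined in every mouse of the series. The genes were the transcription factor genes Mlxipl (ChREBP) and Srebf1 (SREBP1), the enzyme genes Acly, Acaca, Fasn, Scd1, Elovl6 and Me1, and Thrsp and Pnpla3, which serve lipid synthesis and storage. They were taken by symbol from the 23997 genes of the table, in which all 10 were found, and all 10 were among the 10545 genes tested. Livers came from 12 male wild type C57BL/6 mice, 3 in each of 4 groups: a high-fat high-sugar diet with curcumin (HFHSD+CUR), the same diet without it (HFHSD), a normal chow diet with curcumin (NCD+CUR), and that chow alone (NCD). Curcumin is the yellow polyphenol of turmeric. By their labels 10 mice were 99 weeks old, and NCD+CUR replicate 3 and NCD replicate 3 were 107 weeks old. The design text of the series names 83 to 91 weeks. By the study's methods the mice were acclimated and then fed these diets for weeks. Their ages at the start and at collection therefore differ, and the texts need not conflict. Neither the labels nor the study's methods say what the replicate numbers stand for, so the p-values measure the spread between these samples.

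De novo lipogenesis turns dietary sugar into fatty acids in the hepatocyte. ChREBP is activated by sugar metabolites, whereas SREBP1 is made as a membrane-bound precursor that is cut and sent to the nucleus under insulin, and both factors switch on the same set of enzyme genes. Acly makes cytosolic acetyl-CoA from citrate, Acaca turns it into malonyl-CoA, Fasn builds palmitate from these units, Elovl6 lengthens palmitate, Scd1 desaturates the product, and Me1 provides NADPH. Much of the control of both factors lies in cutting, modification and entry into the nucleus, which mRNA levels do not measure.

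The sequences before the starts of the genes on which the results turn are shown because the enzymes varied together from mouse to mouse. The RefSeq table (GRCm38.p6, the assembly also called mm10) held 13 promoters for 9 of the 10 genes. Each run has the 250 bases before an annotated start, 5′ to 3′ on the strand of the gene, and capitals mark matches on either strand to the E-box CACGTG (bound by ChREBP-type factors), the sterol element TCACNCCAC (SRE), the NF-Y box CCAAT and the GC box GGGCGG.
Mlxipl 1 (chr5:135106641-135106890, plus strand): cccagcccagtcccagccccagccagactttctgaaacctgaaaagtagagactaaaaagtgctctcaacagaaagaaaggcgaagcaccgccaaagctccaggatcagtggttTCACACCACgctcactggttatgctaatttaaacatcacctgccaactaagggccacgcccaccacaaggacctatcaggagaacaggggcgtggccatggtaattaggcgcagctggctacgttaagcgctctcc
Mlxipl 2 (chr5:135089640-135089889, plus strand): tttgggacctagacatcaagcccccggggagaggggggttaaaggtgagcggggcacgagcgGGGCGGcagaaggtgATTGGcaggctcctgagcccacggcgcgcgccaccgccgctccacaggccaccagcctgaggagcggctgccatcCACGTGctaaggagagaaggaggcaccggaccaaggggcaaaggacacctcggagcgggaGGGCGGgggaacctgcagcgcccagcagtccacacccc
Srebf1 3 (chr11:60210472-60210721, minus strand): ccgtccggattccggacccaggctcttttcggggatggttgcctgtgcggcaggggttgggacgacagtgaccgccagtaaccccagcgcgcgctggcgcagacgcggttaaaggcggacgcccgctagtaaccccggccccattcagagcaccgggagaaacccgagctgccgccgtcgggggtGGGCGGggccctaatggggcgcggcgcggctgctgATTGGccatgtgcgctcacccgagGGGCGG
Acly (chr11:100528001-100528250, minus strand): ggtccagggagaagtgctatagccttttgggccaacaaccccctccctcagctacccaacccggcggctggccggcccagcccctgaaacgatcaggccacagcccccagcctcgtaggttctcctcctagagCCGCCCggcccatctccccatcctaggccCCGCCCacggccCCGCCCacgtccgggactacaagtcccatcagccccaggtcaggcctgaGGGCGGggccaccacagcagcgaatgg
Fasn (chr11:120824548-120824797, minus strand): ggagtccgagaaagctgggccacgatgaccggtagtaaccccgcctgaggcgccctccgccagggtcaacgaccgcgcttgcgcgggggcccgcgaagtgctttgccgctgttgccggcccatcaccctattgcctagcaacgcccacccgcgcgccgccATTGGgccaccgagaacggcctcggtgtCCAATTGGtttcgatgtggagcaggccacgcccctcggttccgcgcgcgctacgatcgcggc
Thrsp (chr7:97417551-97417800, minus strand): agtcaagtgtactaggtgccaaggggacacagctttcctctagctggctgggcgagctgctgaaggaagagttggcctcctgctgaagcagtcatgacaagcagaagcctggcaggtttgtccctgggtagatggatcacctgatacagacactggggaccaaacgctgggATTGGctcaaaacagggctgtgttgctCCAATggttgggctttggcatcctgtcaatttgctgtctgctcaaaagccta
Mlxipl, Srebf1 and Me1 have several starts, and FPKM per gene does not separate them. The SRE was matched in 1 of the 13 promoters, at positions -136 to -128 of Mlxipl 1, where 1.05% of the 32851 promoters of the table held a match. The E-box was matched in 1, at -98 to -93 of Mlxipl 2, against 6.02% of all promoters. The NF-Y box was matched in 7 of the 13, against 33.8% of all promoters, and Fasn held 3 such boxes, of which those starting at -62 and -59 overlap. The GC box was matched in 6 of the 13, against 32.7%, and Acly held 4. The longer ChoRE consensus of ChREBP was matched in 0 of the 13 and in 0.0974% of all promoters. The listed promoters of Acaca and Elovl6 held no match to any of these motifs. The only one listed for Acaca (chr11:84195188-84195437, plus strand) lies inside the gene, whose first base is at 84129635. The runs of Fasn and Srebf1 also lie inside their genes, whose first bases on the minus strand are at 120825166 and 60224186. The bases before these first bases of Acaca, Fasn and Srebf1 were not scanned. A match describes the letters only, and no binding was measured. Sites farther before the starts, or with letters outside these patterns, were not searched, so a count of 0 does not show that a gene lacks them.

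**Figure D1:**
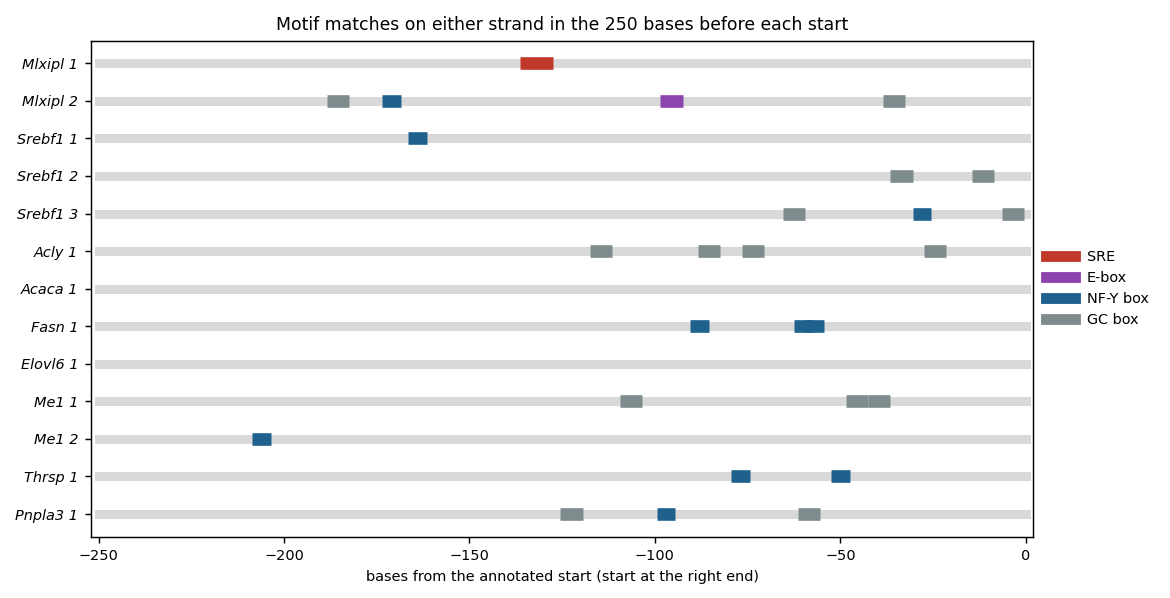
Motif matches in the 13 promoters, drawn by distance in bases from the annotated start at the right end. The SRE and the E-box each occur once, both before starts of Mlxipl, and the boxes of NF-Y (7 promoters) and GC (6 promoters) mostly lie nearer to the start than the SRE does.

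The genes differed widely in level. On the FPKM scale, which is per length of transcript, Scd1 averaged 1604 FPKM over the 12 mice and ranked 49th of all genes in the table, followed by Thrsp (430.4 FPKM), Mlxipl (102 FPKM), Srebf1 (99.1 FPKM), Fasn (60.0 FPKM), Acly (53.0 FPKM), Me1 (43.0 FPKM), Elovl6 (16.1 FPKM), Acaca (14.4 FPKM) and Pnpla3 (2.78 FPKM). From Mlxipl to Me1 each neighbour in this order overlapped the next over the mice, as did Elovl6 and Acaca, whereas no overlap was seen from Scd1 to Thrsp, Thrsp to Mlxipl, Me1 to Elovl6 and Acaca to Pnpla3. The factor genes were the steadiest, Mlxipl by little: the highest mouse had 1.71 times the lowest for Srebf1 and 2.17 times for Mlxipl. Next came Elovl6 (2.30 times), Me1 (2.35 times), Scd1 (2.46 times) and Acaca (2.66 times). The widest were Acly and Fasn (3.99 times for both), Thrsp (4.28 times) and Pnpla3 (18.6 times). Scd1 has closely related family members, and how reads shared between them were counted is not given in the sources used here.

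Some livers stood apart for these genes. NCD replicate 3 was the highest of all 12 mice for 7 of the 10 genes (Srebf1 and the 6 enzymes) and the lowest for 0. In the chow-fed mice, both livers labelled 107 weeks exceeded all 4 labelled 99 weeks for 8 of the 10 genes, the exceptions being Mlxipl and Scd1, while 12.5% of tested genes did so. Fasn, for example, had 112 and 135 FPKM in the mice of 107 weeks, against 36.8 to 54.0 FPKM in those of 99 weeks. Age cannot be told apart from whatever else the replicate number 3 stands for. The grouping by age was not among the planned comparisons and is given without a test. NCD replicate 3 and HFHSD replicate 3 were also the deepest libraries. Their depth, estimated from steps between low FPKM values, was 1.54 and 1.48 times that of NCD replicate 1. The other libraries had estimates of 0.946 to 1.13 times. The study's read counts also put these libraries highest, with HFHSD replicate 3 ahead of NCD replicate 3. Results that rest on the livers of 107 weeks are therefore given with and without them.

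The tissue was checked by markers. The 17 hepatocyte markers in the table summed to 96479 to 106824 FPKM in HFHSD+CUR, 100204 to 115697 FPKM in HFHSD, 107034 to 118641 FPKM in NCD+CUR and 105157 to 114709 FPKM in NCD. The adipocyte markers Plin1 and Lep were listed at 0 in all 12 livers, as were the pancreatic markers Cpa1, Prss1 and Pnlip. The 8 adipocyte markers, a cell type that also runs lipogenesis, summed to 33.0 to 89.1 FPKM in HFHSD+CUR, 25.1 to 103.6 FPKM in HFHSD, 33.6 to 76.4 FPKM in NCD+CUR and 25.4 to 80.9 FPKM in NCD, and Cfd in HFHSD+CUR against NCD+CUR was the 1 call among the 4 tested. In bulk samples, fewer cells of a type and less RNA per cell cannot be told apart.

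The first question was whether curcumin went with other levels of the lipogenic genes on the rich diet. Mlxipl, the gene of the sugar-sensing factor, rose. It had 118, 121 and 153 FPKM in HFHSD+CUR, against 85.5, 95.0 and 79.9 FPKM in HFHSD (replicates 1 to 3 throughout). Every HFHSD+CUR liver exceeded every HFHSD liver, while 40.7% of tested genes had groups that did not overlap, in either direction. The log2 fold change was 0.58 (SE 0.137, 95% interval 0.28 to 0.87, n = 3 each, limma adjusted p = 0.0160 over all tested genes), a fold of 1.49. Being higher in 3 of 3 same-numbered pairs follows from these ranges. The share of all tested genes with 3 of 3 pairs in 1 direction was not computed, here or below. Mlxipl was the 1 of 10 genes called, that is, with an adjusted p under 0.1, whereas 30.3% of all tested genes were called in this comparison and 13.1% were called as higher. A count of 1 in 10 is below that background. Likewise 1 of the 10 had an unadjusted p under 0.05, against 36% of tested genes.

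Srebf1, the gene of the insulin-driven factor, did not pass. It had 119, 80.2 and 72.5 FPKM in HFHSD+CUR, against 115, 90.7 and 111 FPKM in HFHSD, and the groups overlapped. Its log2 fold change was -0.24 (95% interval -0.67 to 0.18, limma adjusted p = 0.387).

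All 6 enzymes had log2 fold changes below 0, between -0.86 and -0.09 with a median of -0.37, where the median of all tested genes was -0.03, and 0 of the 6 passed the test. None had an unadjusted p under 0.05. Acly, at the entry to the pathway, had 53.4, 28.2 and 27.9 FPKM in HFHSD+CUR, against 81.7, 35.4 and 87.9 FPKM in HFHSD, with a log2 fold change of -0.86 (SE 0.511, limma adjusted p = 0.252). Me1, the supplier of NADPH, had 46.0, 40.0 and 25.8 FPKM in HFHSD+CUR, against 56.7, 47.3 and 49.6 FPKM in HFHSD. These Me1 ranges did not overlap, which held for 40.7% of tested genes, and the log2 fold change was -0.50 (limma adjusted p = 0.252). Both genes were lower in 3 of 3 same-numbered pairs, which for Me1 follows from its ranges.

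Fasn had 52.4, 37.4 and 37.3 FPKM in HFHSD+CUR, against 58.1, 34.0 and 70.0 FPKM in HFHSD. Scd1 had 1250, 1328 and 1124 FPKM in HFHSD+CUR, against 1590, 1291 and 2231 FPKM in HFHSD. Acaca had 14.6, 10.3 and 12.8 FPKM in HFHSD+CUR, against 15.3, 9.56 and 18.1 FPKM in HFHSD. In all 3 genes, as in Elovl6 (18.0, 11.3 and 17.3 FPKM in HFHSD+CUR, against 18.2, 11.2 and 20.8 FPKM in HFHSD), replicate 2 of HFHSD lay within or below the HFHSD+CUR range while its replicate 3 lay above it. The 95% intervals of the log2 fold change ran from -1.45 to 0.84 for Fasn, -1.09 to 0.22 for Scd1, -0.89 to 0.59 for Acaca and -0.81 to 0.63 for Elovl6, and each spans 0.

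Thrsp, a small protein that lipogenic feeding induces, had 677, 469 and 559 FPKM in HFHSD+CUR, against 567, 404 and 588 FPKM in HFHSD, and the groups overlapped (log2 fold change 0.13, limma adjusted p = 0.871). Pnpla3, an acyl hydrolase of lipid droplets that SREBP1 switches on, had 6.47, 1.14 and 1.61 FPKM in HFHSD+CUR, against 3.15, 0.460 and 1.32 FPKM in HFHSD. It was higher in 3 of 3 same-numbered pairs, although its spread within groups left a log2 fold change of 0.81 with an adjusted p of 0.586 by limma. Without HFHSD+CUR replicate 1 the log2 fold change of Pnpla3 was 0.089, and without HFHSD replicate 2 or HFHSD replicate 1 it was 0.17 or 1.44, none of them called.

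Same-numbered mice deviated together within each diet, and the block changed calls here. When replicate numbers entered the model as blocks inside each diet, 4 of the 10 genes were called on HFHSD, while 45.7% of tested genes were. Mlxipl rose (limma adjusted p = 0.00720), Pnpla3 rose (adjusted p = 0.0209), and Acly (adjusted p = 0.0291) and Me1 (adjusted p = 0.0128) fell. With the pair as a random effect, Mlxipl, Acly (limma adjusted p = 0.0927) and Me1 (adjusted p = 0.0810) were called, 3 of 10 against 46.3% of tested genes. Fasn, Scd1, Acaca, Elovl6, Srebf1 and Thrsp were called in neither. Both shares of called genes among the 10 lie below those over all tested genes, and the fits with a block were not repeated with livers left out.

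**Figure D2:**
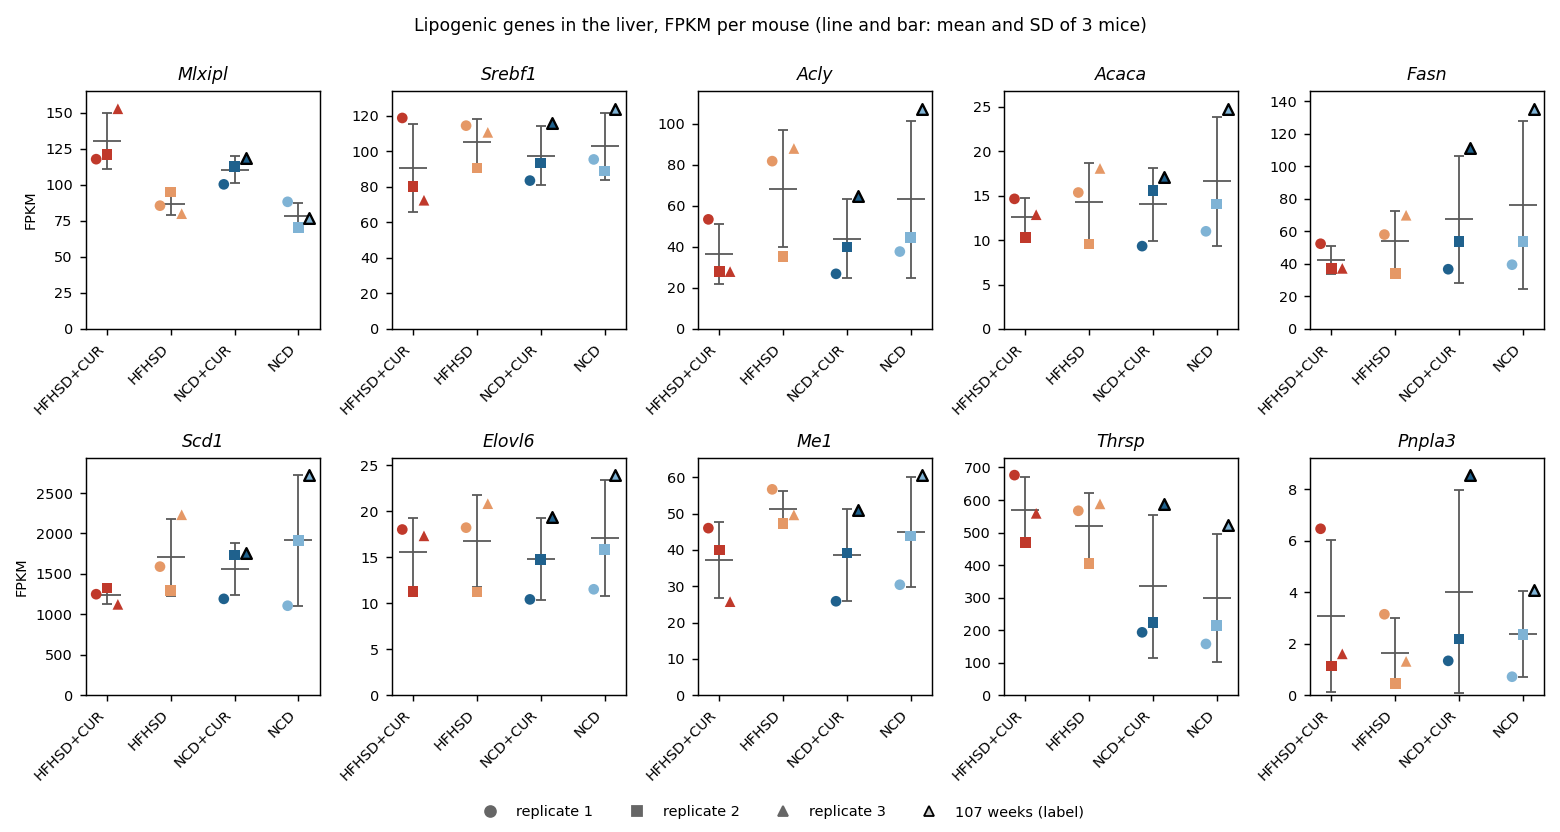
FPKM of the 10 genes in each of the 12 mice, with the mean and SD of each group of 3, and symbols that mark the replicate number and the mice labelled 107 weeks. Mlxipl is higher in every curcumin-fed mouse (100.2 to 153 FPKM) than in every mouse without curcumin (70.5 to 95.0 FPKM), whereas within groups Acly had a coefficient of variation of 40.1% to 60.8% and Scd1 one of 8.33% (HFHSD+CUR) to 42.1% (NCD).

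On chow, Mlxipl had 100.2, 113 and 119 FPKM in NCD+CUR, against 88.1, 70.5 and 77.2 FPKM in NCD. The groups did not overlap, which held for 19.6% of tested genes (9.53% as higher). The log2 fold change was 0.49 (SE 0.137, unadjusted p = 0.00311 and limma adjusted p = 0.290), so Mlxipl was not called. No gene at all was called in this comparison (0 of 10 lipogenic genes and 0% of tested genes), where 14% of tested genes had an unadjusted p under 0.05. With the replicate block within each diet Mlxipl rose on chow too (limma adjusted p = 0.0784), as 1 of 10 genes against 8.16% of tested genes, and with the random block its adjusted p was 0.060, where 10.1% of tested genes were called.

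The other genes overlapped between NCD+CUR and NCD. Srebf1 had 83.6, 93.4 and 116 FPKM in NCD+CUR, against 95.5, 89.0 and 124 FPKM in NCD. Acly had 26.9, 40.0 and 64.8 FPKM in NCD+CUR, against 37.7, 44.4 and 107 FPKM in NCD. Acly, Elovl6 and Me1 were lower, and Mlxipl and Thrsp higher, in 3 of 3 same-numbered pairs, which for Mlxipl follows from its ranges. Without the share over all tested genes, these counts are description only. Fasn had 36.8, 54.0 and 112 FPKM in NCD+CUR, against 39.6, 53.8 and 135 FPKM in NCD. The spread over the mice of a group exceeded the difference between the group means for each of these 3 genes. The 6 enzymes had log2 fold changes of -0.45 to -0.13 with a median of -0.21 (-0.32 to -0.02 with a median of -0.09 without both livers of 107 weeks), none past the test, while Thrsp (0.18) and Pnpla3 (0.59) had positive ones with adjusted p of 0.892 and 0.819 by limma.

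The difference of the CUR comparisons between the diets was tested as an interaction. None of the 10 genes was called (limma adjusted p = 0.9999 for each), 0% of tested genes were, and 1.38% had an unadjusted p under 0.05. For Mlxipl the difference was 0.09 on the log2 scale with a 95% interval of -0.33 to 0.50, and for Acly it was -0.41 with an interval of -2.03 to 1.21. Over both diets, all 6 curcumin-fed mice had more Mlxipl than all 6 mice without curcumin, and of the 10 genes Mlxipl was alone in this. Over all tested genes 3.65% had such ranges in that direction and 7.33% in either direction. This grouping was chosen after the values had been seen, so it is given without a test.

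**Figure D3:**
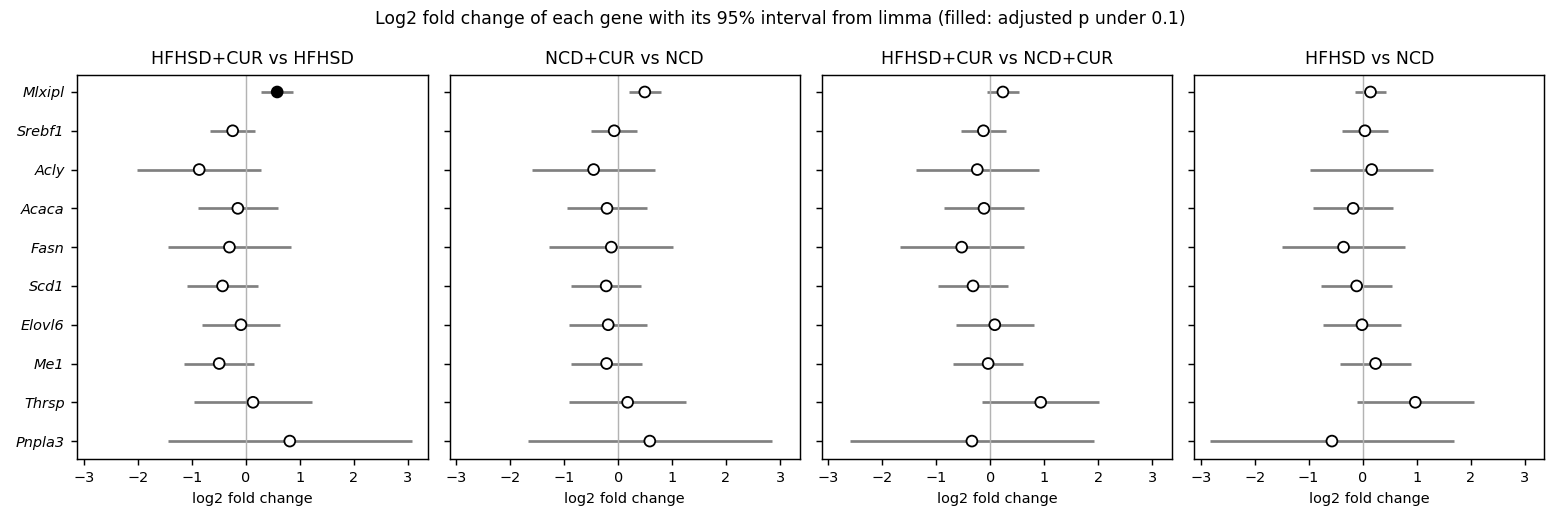
Log2 fold change of each gene with its 95% interval from limma in the 4 comparisons, filled where the adjusted p was under 0.1. Mlxipl on HFHSD (0.58) is the filled point, and the intervals of Acly, Fasn, Thrsp and Pnpla3 are the widest.

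The second question was the diet itself. HFHSD against NCD called 0 of the 10 genes, and none had an unadjusted p under 0.05, while 4.61% of tested genes were called and 18.7% had an unadjusted p under 0.05. The log2 fold changes of the 6 enzymes ran from -0.35 to 0.24 with a median of -0.06, where that of all tested genes was 0.03. Without both livers of 107 weeks all 6 were above 0 (0.15 to 0.63, median 0.23), with Acaca, Fasn, Scd1 and Elovl6 turned in sign, and 0 of the 6 were called. Mlxipl (log2 fold change 0.15, 95% interval -0.15 to 0.44) and Srebf1 (0.04, interval -0.38 to 0.46) overlapped between the diets too.

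Thrsp, the lipogenic protein described above, differed between the diets among the mice of 99 weeks. It had 567, 404 and 588 FPKM in HFHSD, against 158, 214 and 524 FPKM in NCD, where the 524 FPKM belonged to the mouse labelled 107 weeks. With all 12 livers its log2 fold change was 0.98 (SE 0.486, limma adjusted p = 0.314). Without both livers of 107 weeks Thrsp rose, with a log2 fold change of 1.48 (limma adjusted p = 0.00167), as 1 of the 10 genes against 17.3% of tested genes. On the NCD side this call rests on the livers with 158 and 214 FPKM. When NCD replicate 1 alone was left out instead, the log2 fold change was 0.61 (limma adjusted p = 0.649). With age as a covariate the log2 fold change was 1.48 (limma adjusted p = 0.000481), where 19.3% of tested genes were called. The livers of 107 weeks alone set the age term. This fit therefore nearly repeats leaving them out and is no separate evidence.

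Among curcumin-fed mice Thrsp had 677, 469 and 559 FPKM in HFHSD+CUR, against 194, 224 and 587 FPKM in NCD+CUR, where the 587 FPKM again belonged to the mouse of 107 weeks. The log2 fold change was 0.93 (limma adjusted p = 0.356), and without both livers of 107 weeks it was 1.43 (limma adjusted p = 0.00270), as 1 of the 10 genes against 9.87% of tested genes. Without NCD+CUR replicate 1 alone it was 0.63 (limma adjusted p = 0.707). Without NCD+CUR replicate 3 alone it was 1.43 (limma adjusted p = 0.110), and Thrsp was called in neither. With all livers, 0 of the 10 genes were called in this comparison, 3.61% of tested genes were called, and none of the 10 had an unadjusted p under 0.05, which 17.5% of tested genes had. Fasn had a log2 fold change of -0.53, Scd1 of -0.32 and Mlxipl of 0.23, with adjusted p of 0.627, 0.608 and 0.40 by limma. Among the mice of 99 weeks, all 6 livers on HFHSD with or without curcumin (404 to 677 FPKM) exceeded all 4 on chow (158 to 224 FPKM). Thrsp was alone among the 10 genes in this, and 7.04% of tested genes had such ranges in that direction. This grouping was not among the planned comparisons, and it leaves out the chow livers with 524 and 587 FPKM. It is given without a test. The 2 diet comparisons use separate livers.

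Some markers of cell types were called with the diet and with curcumin. In HFHSD against NCD, where 4.61% of all tested genes were called, 6 of 8 tested endothelial markers fell, and the 9 listed summed to 28.3 to 44.8 FPKM in HFHSD, against 65.2 to 73.9 FPKM in NCD. Of 8 tested stellate markers 2 fell (Lrat and Des), and the 10 listed summed to 59.7 to 81.5 FPKM in HFHSD, against 92.7 to 118 FPKM in NCD. Of the hepatocyte markers Glul rose and Fgg and Fgb fell. With curcumin on HFHSD, where 30.3% of all tested genes were called, 2 of 8 endothelial markers (Stab1 and Stab2) rose, with sums of 34.9 to 75.9 FPKM in HFHSD+CUR, against 28.3 to 44.8 FPKM in HFHSD. The stellate marker Des rose by 0.53 on the log2 scale, with stellate sums of 47.1 to 90.2 FPKM in HFHSD+CUR, against 59.7 to 81.5 FPKM in HFHSD. The B cell markers Cd79b and Cd79a rose by 1.03 and 0.85 on the log2 scale. Of 17 hepatocyte markers 4 fell (Cps1, Tdo2, Apob and Fga) and 2 rose (Apoa1 and Apoc3), a count near that background, the cholangiocyte marker Krt19 and the pancreatic marker Cela2a rose, and Alas2 of red cells fell. In HFHSD+CUR against NCD+CUR, 4 hepatocyte markers (Fgb, Fgg, Fga and Cps1) and the stellate marker Lrat fell, where 3.61% of all tested genes were called. None of the listed endothelial, stellate or hepatocyte markers was at 0 in all livers of a group. Macrophage, neutrophil, T and NK cell markers had 0 calls in these comparisons. The part of these cells in the results on the lipogenic genes was not tested.

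The enzymes moved together from mouse to mouse. Over the 12 mice, the 15 pairs among the 6 enzymes had Pearson r of 0.61 to 0.94 with a median of 0.83 on log2(FPKM + 0.1). By permutation tests over 45 pairs of the 10 genes, 22 pairs had an adjusted p under 0.05, all of them with a positive r, and 14 of these were among the 15 enzyme pairs. Acaca and Elovl6 had an r of 0.94 and a rho of 0.92 (permutation p = 2e-05, adjusted p = 0.00045), with an r of 0.91 without the 2 livers farthest from the median of Acaca. With the group means removed, the enzyme pairs had r of 0.63 to 0.97, and in the 10 mice of 99 weeks they had r of 0.46 to 0.94. Library depth and the pairing within diets are shared by these points.

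Srebf1 mRNA varied with the enzymes, and the difference from Mlxipl in this was not tested. Srebf1 had r of 0.59 to 0.90 with the 6 enzymes, the highest with Acly (r = 0.90, rho = 0.86, permutation p = 0.00015, adjusted p = 0.0022, and r = 0.88 without the 2 livers farthest from its median). Of these 6 pairs 5 had an adjusted p under 0.05, and the r of Srebf1 with Scd1 (0.59, rho = 0.45, permutation p = 0.043, adjusted p = 0.074) was 0.33 without the 2 farthest livers. Mlxipl had r of -0.58 to -0.17 with the 6 enzymes. None of its 9 pairs had an adjusted p under 0.05, and the lowest was that with Scd1 (r = -0.58, rho = -0.53, permutation p = 0.046, adjusted p = 0.077). With the group means removed, the r of Mlxipl with the enzymes lay between -0.40 and -0.07. In the 10 mice of 99 weeks, r with the enzymes ran from 0.40 to 0.87 for Srebf1 and from -0.60 to -0.08 for Mlxipl.

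**Figure D4:**
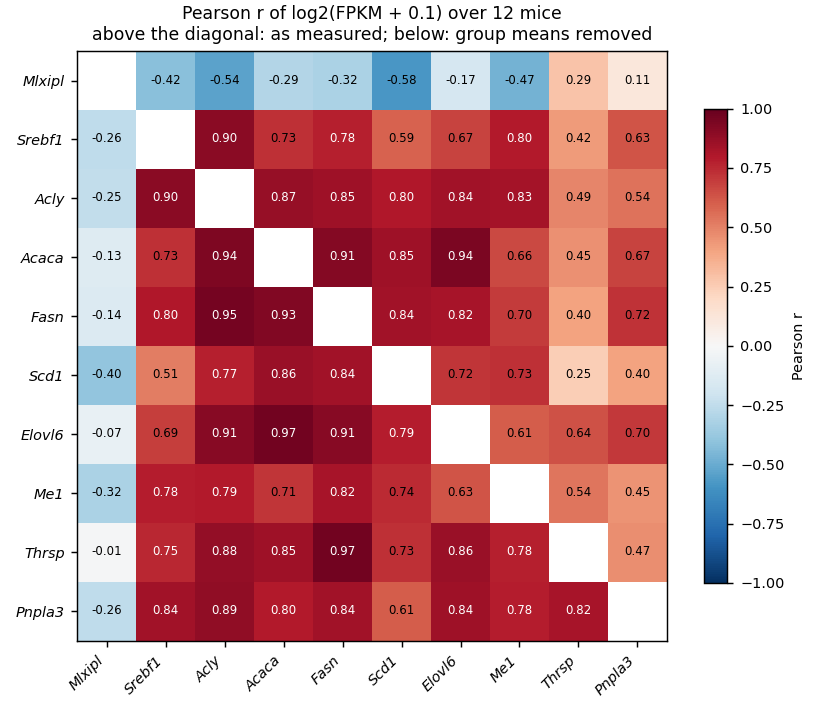
Pearson r between the 10 genes over 12 mice, as measured above the diagonal and with the group means removed below it. The pairs of the 6 enzymes and Srebf1 are positive throughout, Mlxipl is negative with all 6 enzymes, and Thrsp and Pnpla3 have higher r with the enzymes once the group means are removed.

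With all 12 livers, Thrsp followed the enzymes more closely within groups than across them, although this difference was not tested. With Fasn its r was 0.40 over all 12 mice (rho = 0.45, permutation p = 0.19, adjusted p = 0.22). With the group means removed it was 0.97. The 2 livers farthest from the median of Fasn were NCD+CUR replicate 3 and NCD replicate 3, both labelled 107 weeks. Without them, that is, in the mice of 99 weeks, the r of Thrsp with Fasn was 0.26. Pnpla3 and Acly had an r of 0.54 (rho = 0.57, permutation p = 0.069, adjusted p = 0.11). Their r was 0.89 with the group means removed, 0.68 without the 2 farthest livers and 0.41 in the mice of 99 weeks. Neither r with the group means removed was computed without the livers of 107 weeks. In every group, 1 mouse was lowest for most enzymes: replicate 1 for 6 of 6 in NCD+CUR and in NCD, replicate 2 for 6 of 6 in HFHSD, and replicate 3 for 4 of 6 in HFHSD+CUR.

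**Figure D5:**
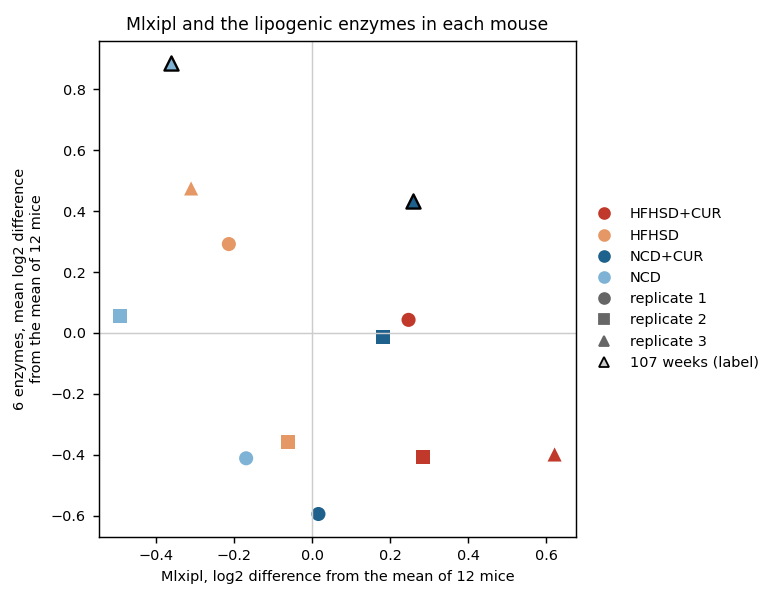
Mean log2 difference of the 6 enzymes from the mean of the 12 mice, plotted against that of Mlxipl, 1 point per mouse. The mice without curcumin lie left of 0 on the Mlxipl axis and the curcumin-fed mice right of it, and on the enzyme axis NCD replicate 3 (0.89) and NCD+CUR replicate 1 (-0.59) are the extremes.

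The genes whose pattern was most like each factor were taken among the 6474 genes whose mean reached 5 FPKM, by Pearson r over the 12 mice. For Srebf1 they were Actr6 (r = 0.93), Mid1ip1 (0.93), whose protein promotes the assembly of acetyl-CoA carboxylase, Casp9 (0.91), Acly (0.90) and Rcbtb2 (0.89). For Fasn they included Pklr (0.94), the liver pyruvate kinase and a target of ChREBP, Acaca (0.91), Lss (0.88) of cholesterol synthesis and Apoh (0.86). For Mlxipl they were Hnrnph3 (0.99), Dmtf1 (0.96), the long noncoding RNA Firre (0.95), Akap8 (0.95) and Mterfd2 (0.94), none of which is an enzyme of lipid synthesis. Ranked by likeness to Fasn, Srebf1 was 23rd and Mlxipl was 5523rd.

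Neighbouring steps were read from lists, whose counts with curcumin on HFHSD stand against the 30.3% of all tested genes called there. Of 22 other genes of fatty acid synthesis, 4 fell and 0 rose with curcumin on HFHSD (median log2 fold change -0.22, against -0.03 over all tested genes), a count below that background. Fads2, the delta-6 desaturase, averaged 146 ± 84.2 FPKM in HFHSD+CUR and 327 ± 99.4 FPKM in HFHSD (SD, n = 3 each), a log2 fold change of -1.28 (limma adjusted p = 0.0602). Hsd17b12, an enzyme of elongation, fell by 0.34, and the acyl-CoA synthetases Acsl1 and Acsl5 fell by 0.48 and 0.49 on the log2 scale. In each of HFHSD against NCD, NCD+CUR against NCD and HFHSD+CUR against NCD+CUR, 0 of the 22 were called, with 3, 0 and 2 at an unadjusted p under 0.05.

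Of 11 tested genes of glycerolipid synthesis, Agpat1 rose by 0.70 and Agpat6, a glycerol-3-phosphate acyltransferase, fell by 0.42 on the log2 scale (limma adjusted p = 0.0607) with curcumin on HFHSD. Agpat6 rose with the diet, by 0.77 in HFHSD against NCD (limma adjusted p = 0.0270), which uses the same HFHSD livers, and by 0.70 in HFHSD+CUR against NCD+CUR (adjusted p = 0.0542). Of 14 genes of glycolysis and fructose use under ChREBP, 1 rose and 2 fell with curcumin on HFHSD, also below 30.3%. Slc2a2, the main glucose transporter of the hepatocyte, had a log2 fold change of -0.70 and Slc2a5, a fructose transporter, of -0.54, whereas Pfkfb1, of the bifunctional enzyme that sets fructose 2,6-bisphosphate, rose by 0.41. Fgf21, a hormone gene under ChREBP, averaged 1.69 FPKM in HFHSD and 8.60 FPKM in NCD and fell by 2.39 on the log2 scale (limma adjusted p = 0.0986).

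Among 20 partners and controllers of the factors, 3 rose and 4 fell with curcumin on HFHSD, a count near the background of 30.3%, and 0 were called in the other comparisons. Srebf2, the gene of the cholesterol-regulating relative of SREBP1, averaged 7.81 FPKM in HFHSD+CUR and 12.2 FPKM in HFHSD (log2 fold change -0.61, limma adjusted p = 0.0464). Mbtps2, a protease that cuts SREBP precursors, fell by 0.65, Bhlhe40, a repressor of the clock family, fell by 0.63, and Nfyc, a subunit of NF-Y, rose by 0.36 on the log2 scale. Feeding state and time of day also set these genes, so their marker genes were read. Of 14 genes of the fasting response 2 fell with curcumin on HFHSD, Fbp1 of gluconeogenesis (log2 fold change -0.79) and Irs2 (-1.23), and 0 were called in the other comparisons. Of 13 clock genes, Per3 (0.61), Per2 (0.54) and Ciart (0.51) rose with curcumin on HFHSD, Cry1 rose by 0.98 in HFHSD against NCD, and Nfil3 rose by 0.76 in HFHSD+CUR against NCD+CUR. Their part in the lipogenic values was not tested.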

How the data were processed

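Stranded poly(A) libraries were prepared from liver (left lateral lobe). Per the labels, TopHat2 (2.0.13) and the mm10 build served for alignment, and the authors computed the deposited FPKM values, fragments scaled by transcript length and library size, with Cuffdiff (2.2.1). Fragment numbers cannot be read back from FPKM, so counting errors are unknown, and relative depth was read from steps between low values (under 0.5 FPKM). The tables of the authors' own comparisons and enrichments were not used.

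Genes whose mean reached 1 FPKM (10545) were tested on log2(FPKM + 0.1) with limma 3.58.1 (R 4.3.3), in 1 model of the 4 groups with trend and robust moderation and no replicate block. A gene was called at a Benjamini-Hochberg adjusted p under 0.1 over all tested genes. Fold changes are on this scale, which understates changes of low genes. Permutation tests of correlations drew 100000 resamples (numpy 2.4.6) and are two-sided, with Benjamini-Hochberg adjustment over 45 pairs. Exact permutation of 3 mice against 3 was not used, since it cannot reach an adjusted threshold. Deviations of same-numbered mice from their group means had r of 0.156, 0.350 and 0.178 on HFHSD and 0.339, 0.300 and 0.527 on chow, and 0.00341, 0.0428 and 0.236 between HFHSD and NCD, so replicate numbers were used as pairs only between groups on the same diet. The pairing comes from the data and not from the labels. On simulated data, genes changed by 1.5-fold were recovered in 36% of cases in HFHSD+CUR against HFHSD and 40.8% in NCD+CUR against NCD, and those changed by 2-fold in 91.8% and 82%. Few genes were changed there, and noise was drawn independently, whereas 30.3% of tested genes were called in the real HFHSD+CUR against HFHSD. The rates average over genes. They do not give the recovery of members with a wide spread, such as Acly (SE 0.511) and Pnpla3 (SE 0.994) in that comparison.

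The members and lists were chosen with earlier results of these data known. Named genes are the 10 members, the called genes of each list with the lowest p (4 at most) per comparison, and the 5 genes most like Srebf1, Mlxipl and Fasn. Tf, Ighm and Ly6g are not analysed here. Some genes that these rules would name are not reported here. Alternatives were other pseudocounts (1 and 0.01), filters, scalings, thresholds, blocks, age as a covariate, removal of GC and length trends, array weights, other moderation, and leaving out libraries. The random block was chosen after seeing the data.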

Additional observations from a re-analysis of the deposited data

How the results depend on the processing

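Mlxipl on HFHSD rose under every alternative run (log2 fold change 0.46 to 0.65, adjusted p 0.00310 to 0.0744 by limma). Over 36 log2 fold changes and 975 alternative values, 894 kept their direction and their side of the threshold, 21 were called where the reported value was not, and 60 changed sign, of which 0 had an adjusted p under 0.1. The cause was not tested for any. Removal of GC and length trends left Mlxipl on HFHSD at 0.46. The correlations gave 23, 23 and 22 pairs with pseudocount 1, equal medians and rho, against 22, and the motif counts over 300 bases were within 1 of those reported.

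The count of the 10 genes called changed as follows. In HFHSD against NCD it was 0, and 1 with age as a covariate (19.3% of all tested genes) or without both livers of 107 weeks (17.3%), 2 with array weights (Thrsp and Me1, against 31.9% of tested genes), and 0 to 1 when 1 liver was left out (1 without NCD replicate 3, Thrsp, 1.48, adjusted p = 0.0594, against 16.6%). In HFHSD+CUR against HFHSD it was 1, and 4 with the replicate block within each diet, 7 with that block and GC and length trends removed (also Srebf1, Fasn and Scd1, against 42.5% of tested genes), and 3 with the random replicate block, against 45.7% and 46.3% of tested genes with the block and the random block alone. In NCD+CUR against NCD it was 0, and 1 (Mlxipl) with the replicate block within each diet, the random replicate block or array weights (8.16%, 10.1% and 33.2% of tested genes in that order). In HFHSD+CUR against NCD+CUR it was 0, and 1 (Thrsp) with age as a covariate (15.8%) or without both livers of 107 weeks (9.87%). The fixed block within each diet cannot be fitted to the diet comparisons. The block changed no other call of the 10 genes.

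Signs turned in HFHSD against NCD with age as a covariate (Acaca 0.073, Fasn 0.13, Scd1 0.088, Elovl6 0.23, Pnpla3 0.066), array weights (0.16, 0.15, 0.37, 0.32 and 0.33) and without both livers of 107 weeks (Acaca 0.15, Fasn 0.16, Scd1 0.19, Elovl6 0.26), and with quantile normalization (Srebf1 -0.073). In NCD+CUR against NCD array weights gave Acaca 0.17, Fasn 0.29, Scd1 0.31, Elovl6 0.15 and Me1 0.13. In HFHSD+CUR against HFHSD removal of GC and length trends, with or without the block, gave Elovl6 0.040.

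Leaving out 1 liver at a time, log2 fold changes in HFHSD against NCD ran from -0.055 to 0.18 for Srebf1, -0.12 to 0.63 for Acly, -0.43 to 0.15 for Acaca, -0.72 to 0.16 for Fasn, -0.46 to 0.19 for Scd1, -0.26 to 0.26 for Elovl6, -0.013 to 0.48 for Me1 and -1.22 to 0.077 for Pnpla3. Those of Thrsp kept their sign, from 0.61 to 1.48 there and from 0.63 to 1.43 in HFHSD+CUR against NCD+CUR. In HFHSD+CUR against HFHSD they ran from -0.41 to 0.041 for Acaca, -0.35 to 0.12 for Elovl6 and -0.040 to 0.26 for Thrsp, and, with no change of sign, from 0.089 to 1.44 for Pnpla3, -0.61 to -0.087 for Fasn, -0.61 to -0.22 for Scd1, -0.46 to -0.10 for Srebf1, -1.28 to -0.63 for Acly and -0.67 to -0.25 for Me1. In NCD+CUR against NCD they ran from -0.20 to 0.069 for Srebf1, -0.78 to 0.0080 for Acly, -0.46 to 0.12 for Acaca, -0.57 to 0.39 for Fasn, -0.57 to 0.079 for Scd1, -0.43 to 0.090 for Elovl6, -0.47 to 0.048 for Me1, -0.32 to 0.68 for Thrsp and -0.16 to 1.13 for Pnpla3, and the interaction of Mlxipl from -0.033 to 0.16.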
